A study of Mus musculus with 4 samples.

Results

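Cortical Myh8 Nr2f2 Sst interneurons are 675 of the 12167 cell barcodes from mouse cortex, and of 26987 barcodes in all 4 matrices of the series. They were chosen by their counts of unique molecular identifiers (UMIs, each tagging a captured RNA molecule). A cell needed 200 to 6000 genes, under 30% mitochondrial UMIs, at least 2 UMIs of Gad1 plus Gad2, which encode the enzymes of GABA synthesis, and no UMI of the oligodendrocyte gene Mog. It also needed Sst at 3000 CPM or more (its UMIs per 1000000 UMIs of the cell), under 2 UMIs of Th, under 2 of Chodl and under 3 of Nos1. These steps kept 2664 Sst cells. In a Myh8 Nr2f2 cell, the UMIs of Myh8 plus Nr2f2 came to at least 2 and to more than Calb2 plus Cbln4 and more than Crh plus Tac2. The levels of these genes are therefore given below as a description, with no test.

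Somatostatin interneurons inhibit the dendrites of cortical pyramidal cells, and many of them are Martinotti cells, whose axons ascend to the outermost layer. They are born in the medial ganglionic eminence, a ventral zone of the embryonic forebrain that expresses the transcription factor Nkx2.1. Nr2f2 encodes COUP-TFII, an orphan nuclear receptor known for its role in the caudal eminence and in part of the Sst lineage, and Myh8 encodes a myosin heavy chain of developing skeletal muscle whose RNA serves as a label of some cortical Sst types. Gfra2 is the receptor subunit that binds neurturin and signals with the kinase Ret, and Fxyd7 is a small membrane protein of brain that adjusts the sodium pump.

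The study sorted TdTomato-positive cells from dissociated frontal cortex and hippocampus for droplet single-cell RNA sequencing. The mice carried Nkx2.1-Cre and the Ai14 reporter, and were either Grin1 wt/wt (WT) or Grin1 fl/fl, in which Cre removes Grin1, the obligatory subunit of NMDA receptors (Grin1-null). All were 18 to 20 days old and of both sexes, and the solutions of every group contained TTX, APV and Actinomycin-D, which block spikes, NMDA receptors and transcription. There are 5 cortical libraries, 3 WT and 2 Grin1-null, and 5 hippocampal ones. Replicate 1 of each group was made with an older version of the droplet kit than replicates 2 and 3, so kit and preparation cannot be told apart. Because Nkx2.1-Cre acts in the whole lineage from the embryo, oligodendrocytes of that lineage were sorted too, and Grin1 was lost in all its cells and not in the Myh8 Nr2f2 cells alone.

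WT cortical replicates 1, 2 and 3 hold 9306756, 14212183 and 28057207 UMIs, and Grin1-null replicates 1 and 2 hold 1488601 and 25688337. The Myh8 Nr2f2 cells number 152, 104 and 344 in the WT libraries and 15 and 60 in the Grin1-null libraries. Their median depths are 7935, 4658 and 8206.5 UMIs in WT and 8557 and 15048 in Grin1-null cells. WT replicate 2 is the shallowest and Grin1-null replicate 2 the deepest, and Grin1-null replicate 1 rests on few cells. No barcode is shared between 2 libraries among the 675 cells, while 88 barcodes occur in more than 1 library among the 26201 barcodes of the series that passed the limits on genes and mitochondrial UMIs. Scrublet, which scores likely doublets, marked 5 of the 675 cells, all of them in WT replicate 3.

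Myh8 and Nr2f2 were both counted in 434 of the 675 cells, Myh8 alone in 61 and Nr2f2 alone in 180. Both genes were seen together in most of the cells, but the cells were chosen by the sum of the pair, so this is a description only. The sum of the pair reached 3 or more UMIs in 484 cells and was exactly 2 in 191. Just inside the threshold, the 191 cells had Gfra2 at 79.3 and Fxyd7 at 850.0 CPM, the level of a group being that of its summed UMIs. Just outside it, 265 cells with a sum of 1 and no UMI of the other pairs had 77.9 and 694, against 98.0 and 1001 in the cells with 3 or more. Gfra2 is thus nearly level across the edge. At the Sst limit, 27 cells lay between 3000 and 4000 CPM inside it and 23 between 2000 and 3000 outside, and 16 cells were left out because their pair sum tied with another. Of the 675, 118 (17.5%) had at least 1 UMI of Calb2, Cbln4, Crh or Tac2, with 9.87, 9.62 and 22.7% in the WT libraries and 13.3 and 21.7% in the Grin1-null ones.

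The genes of the label were counted in the 600 WT cells, whose median depth is 7620 UMIs. They are given beside 1467 oligodendrocytes of the same libraries (median 4218 UMIs), a cell type that should lack these genes. Among the genes that chose the cells, Sst was counted in all 600, Nr2f2 in 90.3% and Myh8 in 72.8%, against 21.5, 0.341 and 0.0682% of the oligodendrocytes. The remaining markers were not part of the selection, but were chosen with results of these data known. Gfra2 was counted in 47.8% of the cells and 0.204% of the oligodendrocytes, and Fxyd7 in 96.0 and 1.30%. With every cell thinned to 2000 UMIs (593 and 1136 cells were deep enough), the shares were 18.9 and 0% for Gfra2 and 78.1 and 0.616% for Fxyd7. Both were thus counted in far more of these cells than of the oligodendrocytes. Of the 1037 WT Sst cells that had none of the 3 pairs ahead (median 5879 UMIs), 20.4% had Gfra2 and 68.9% Fxyd7, or 9.09 and 54.2% thinned, so neither gene is confined to the Myh8 Nr2f2 cells. Their levels in WT replicates 1, 2 and 3 were 84.7, 116 and 89.1 CPM for Gfra2 and 622, 718 and 994 for Fxyd7. The remaining genes of the label stood at 16029.9, 12688 and 15223 (Sst), 282, 332 and 279 (Nr2f2) and 259, 225 and 181 (Myh8). Sst and the sum of Myh8 and Nr2f2 are there by the selection. Gfra2 and Fxyd7 were present in every cortical library, but as they were chosen with results of these data known, they are no independent support for the label.

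On the GRCm38 assembly, Myh8 (ENSMUSG00000055775) lies on chromosome 11 from 67277124 to 67308634, Nr2f2 (ENSMUSG00000030551) on chromosome 7 from 70351944 to 70366735 and Sst (ENSMUSG00000004366) on chromosome 16 from 23889573 to 23890958. Gfra2 (ENSMUSG00000022103) lies on chromosome 14 from 70890120 to 70979838 and Fxyd7 (ENSMUSG00000036578) on chromosome 7 from 31042513 to 31051467. Myh8 sits in a row of muscle myosin heavy chain genes on the same strand: Myh1, Myh4, Myh8 and Myh13, with 13453, 16677 and 13023 bases between them. These genes are close in sequence, and whether reads of Myh8 were counted for its neighbours was not tested. Fxyd7 is followed on its strand by Fxyd5 after 31 bases and preceded by Fxyd1 at 210 bases. The authors extended gene ends downstream, and to the midpoint where a neighbour lay this close, and how well the reads of these genes are kept apart was not tested.

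Markers of microglia, vessels and oligodendrocyte precursors were low in the Myh8 Nr2f2 cells, while Cnr1 and Kcnc1, from the lists for other interneurons, were not. The 10 oligodendrocyte genes summed to 199, 92.5 and 174 CPM in WT replicates 1 to 3 and 54.3 and 121 in Grin1-null replicates 1 and 2. WT oligodendrocytes themselves held 159251, 127179 and 148935 CPM. The 7 astrocyte genes summed to 25.8, 154 and 22.3 in WT and 24.1 and 11.5 in Grin1-null cells, with Apoe the most abundant. In WT replicate 2, 54 of 63 Apoe UMIs came from 1 cell. The 8 microglial genes came to at most 2.42 CPM in any cortical library, the 6 vascular genes to 6.03 and the 5 genes of oligodendrocyte precursors to 8.19. The 8 genes of glutamatergic neurons summed to 61.3, 174 and 119.5 in WT and 48.2 and 109 in Grin1-null cells, nearly all of it Camk2a. Slc17a7, the vesicular glutamate transporter of cortical excitatory cells, was at 0, 1.81 and 0.982 CPM in WT and 0 and 1.15 in Grin1-null cells. Caudal interneuron genes (6 in the list) summed to 290.4, 305 and 303 in WT and 319.6 and 349 in Grin1-null cells, nearly all Cnr1, the cannabinoid receptor, while Vip was at 0 in all 5 libraries. The 6 neurogliaform genes summed to 12.9, 21.8 and 50.4 in WT and 12.1 and 24.1 in Grin1-null cells, and the 6 genes of Pvalb cells to 400.1, 323 and 291 in WT and 217 and 144 in Grin1-null cells, most of it the potassium channel gene Kcnc1. Activity-regulated genes (21) summed to 570.3, 1927 and 983 in WT and 501 and 1196 in Grin1-null cells, Jund the most abundant and WT replicate 2 the highest. Heat-shock genes (12) summed to 5802, 6543 and 7699 in WT and 7116 and 4148 in Grin1-null cells, led by Hsp90ab1.

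Against the Calb2 Cbln4 cells, the Myh8 Nr2f2 cells had more RNA of the neurturin receptor Gfra2 and of neurturin itself, more of the nicotinic receptor subunit Chrna2, the receptor kinase Kit and the cannabinoid receptor Cnr1. They had less of the transcription factors Maf, Tox, Zbtb20 and Mef2c, of the peptide genes Crhbp, Nppc and Pdyn, and of several adhesion molecules of the synapse. The Calb2 Cbln4 cells were chosen from the same gated cells with Calb2 plus Cbln4 as the largest sum, and the 33, 146 and 235 of WT replicates 1, 2 and 3 were compared with the 152, 104 and 344 Myh8 Nr2f2 cells. UMIs were summed per library and group, and the sums were paired within libraries in edgeR's quasi-likelihood test (p adjusted by Benjamini-Hochberg). Changes are log2 ratios, Myh8 Nr2f2 over Calb2 Cbln4 cells, with their standard error. A gene was called at an adjusted p under 0.01 and an absolute change of at least 0.144. Of 8792 genes tested, 353 (4.02%) were higher and 441 (5.02%) lower, together 9.03%, and 42.8% of all genes kept their direction in every library.

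Gfra2 stood at 84.7, 116 and 89.1 CPM in the Myh8 Nr2f2 cells of WT replicates 1, 2 and 3 and at 12.7, 22.5 and 18.7 in the Calb2 Cbln4 cells. Fxyd7 stood at 622, 718 and 994 against 232, 289 and 499.6. Each library therefore had more of both genes in the Myh8 Nr2f2 cells, and for Gfra2 the groups are far apart. The changes were 2.27 ± 0.16 for Gfra2 and 1.13 ± 0.08 for Fxyd7 (n = 3 libraries a group), both called. Without the pairing of libraries Fxyd7 lost its call, and Gfra2 kept it. The Grin1-null libraries, which this test did not use, gave 66.3 and 113 CPM of Gfra2 against 10.8 and 9.18, and 1073 and 1483 of Fxyd7 against 139.9 and 551. The direction was the same in both. Of the selection genes, Calb2 was at 14.1 ± 5.71 CPM in the Myh8 Nr2f2 and 1554 ± 243 in the Calb2 Cbln4 cells (mean ± SD, n = 3), Myh8 at 222 ± 39.0 and 15.5 ± 4.65, Nr2f2 at 298 ± 29.7 and 22.3 ± 0.190, and Sst at 14647 ± 1744 and 19884 ± 4993.

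The gene lists were chosen with earlier results of these data known, so counts within a list are a description. The list for the family of glial-derived neurotrophic factor, to which neurturin belongs, also holds Gfra2 and Ncam1. Of its 5 genes tested, 3 were higher and none lower (median 0.41, against 0.01 over all genes). Nrtn, neurturin itself, was at 72.6, 30.8 and 40.9 CPM in the Myh8 Nr2f2 cells and 6.35, 8.57 and 6.81 in the Calb2 Cbln4 cells, a change of 2.48 ± 0.26. Ligand and receptor subunit were thus both higher in every library. The third was Ncam1, the neural cell adhesion molecule (0.41 ± 0.08), whose call was lost without WT replicate 3. Among genes of the sodium pump and its FXYD regulators, 4 of 10 were higher and 1 lower (median 0.71). Besides Fxyd7, these were Fxyd6 (368, 361 and 271 against 244, 95.4 and 153 CPM), the pump subunit Atp1b2 (1.32 ± 0.11) and Fxyd1 (3.05 ± 0.53, call lost without WT replicate 3).

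Genes of the myosin heavy chain family gave 3 higher of 5 tested and none lower (median 3.09). Myh13 was at 48.4, 83.4 and 93.7 CPM against 0, 0 and 4.68, Myh4 at 71.8, 36.3 and 77.3 against 0, 4.29 and 9.37 and Myh1 at 31.5, 23.6 and 29.5 against 6.35, 0 and 3.83. All 3 are neighbours of Myh8, which chose the cells, so their higher level is no independent sign. Of 12 genes known from Martinotti cells and from the hippocampal cells with a like axon, 5 were higher and none lower (median 0.35). Chrna2, a nicotinic acetylcholine receptor subunit known from deep Martinotti cells, was at 33.9, 36.3 and 30.8 CPM against 0, 2.14 and 1.28, a change of 4.43 ± 0.40. It was counted in 18.7% of the Myh8 Nr2f2 cells, in 1.21% of the Calb2 Cbln4 cells (median 8345 UMIs), in 6.56% of the 1037 other Sst cells and in none of the 1467 oligodendrocytes, or 5.23, 0.496, 2.25 and 0% after thinning. Most Myh8 Nr2f2 cells thus had no Chrna2 UMI at this depth. Trhde, an enzyme that degrades thyrotropin-releasing hormone, was higher at 465 ± 116 CPM against 134 ± 9.94 (change 1.84 ± 0.10), as were Lypd6, a regulator of nicotinic receptors (1.43 ± 0.10), and the chromatin organiser Satb1 (1.07 ± 0.08). Calb1, which encodes the calcium buffer calbindin, was at 937, 792 and 727 against 1479.6, 835 and 712 CPM and was not called.

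Outside the lists, C1qtnf7, a secreted protein of the C1q family, had 25.8, 16.3 and 26.9 CPM in the Myh8 Nr2f2 cells and 1 UMI in all Calb2 Cbln4 cells. Lypd1, which modulates nicotinic receptors, was at 71.0, 27.2 and 43.9 CPM against 0, 2.14 and 1.28. Kit, the receptor of stem cell factor, was at 22.6, 48.9 and 36.0 against 0, 4.29 and 1.70. These genes were thus at or near 0 in the Calb2 Cbln4 cells. The membrane protein gene Parm1 (102, 163 and 142 against 3.17, 12.9 and 15.3) and Rgs10, which shortens G-protein signals (344, 205 and 259 against 38.1, 23.6 and 25.1), were more abundant. Their changes were 3.35 ± 0.17 and 3.23 ± 0.13. Wnt16, a Wnt ligand, changed by 3.30 ± 0.31. Cnr1, the presynaptic cannabinoid receptor, was at 289.6, 305 and 300.3 CPM against 66.7, 83.6 and 76.7, a change of 1.91 ± 0.11.

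Transcription factors of the Sst lineage split, with 7 of 22 higher and 10 lower (median -0.15). Maf, which guides the fate of Sst cells, was at 60.5, 63.5 and 88.4 CPM in the Myh8 Nr2f2 cells and 314, 619 and 594 in the Calb2 Cbln4 cells. Tox stood at 5.65, 12.7 and 4.58 against 111, 146 and 112, and Zbtb20, a zinc-finger repressor, at 4.03, 16.3 and 12.4 against 213, 248 and 168. In every library the Myh8 Nr2f2 cells lay far below, with changes of -2.81 ± 0.11, -4.33 ± 0.20 and -4.13 ± 0.18. Mef2c, a factor of activity-dependent synapse formation, was lower too (-2.24 ± 0.09). Npas1, a repressor found in several interneuron classes, was higher (1.38 ± 0.11).

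The list of peptide genes, which also holds the receptor Kit, was balanced, with 5 of 16 higher and 5 lower (median -0.23). Crhbp, which binds and buffers corticotropin-releasing hormone, was at 40.3, 34.4 and 70.1 CPM against 537, 518 and 596, and Nppc, C-type natriuretic peptide, at 58.9, 25.4 and 58.6 against 514, 228 and 385. Both were many times lower in each Myh8 Nr2f2 sum (-3.39 ± 0.12 and -2.92 ± 0.11). Pdyn, the precursor of dynorphin, was lower too (-2.20 ± 0.13). Penk, the precursor of enkephalin, was higher (1.40 ± 0.30), but its call was lost without WT replicate 3 and its direction turned in the Grin1-null libraries alone. Of the peptide receptors, 1 of 5 was higher and 2 lower (median -0.27), among them the oxytocin receptor Oxtr at 15.3, 10.9 and 9.82 against 76.2, 91.1 and 75.8 CPM (-2.84 ± 0.20).

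Adhesion and matrix genes were lower more often than higher. Of 20 cadherins and protocadherins, 10 were lower and 3 higher (median -0.72). Pcdh8 was at 6.45, 32.6 and 16.4 CPM against 187, 178 and 146 and Pcdh9 at 22.6, 47.1 and 25.9 against 165, 238 and 191, while Cdh12 went the other way at 47.6, 70.7 and 71.1 against 0, 16.1 and 7.67. The changes were -3.32 ± 0.18, -2.81 ± 0.13 and 2.88 ± 0.25. Of 29 synaptic organisers, 8 were lower and 3 higher (median -0.12). Ptprd, a presynaptic receptor phosphatase that binds postsynaptic partners, was at 16.6 ± 9.73 CPM against 215 ± 109 (-3.63 ± 0.13), and the calsyntenin Clstn2 and the neuroligin Nlgn1 were lower too (-3.51 ± 0.33 and -3.25 ± 0.33). Il1rapl2, a relative of the organiser Il1rapl1, was higher (2.79 ± 0.34). Of 12 matrix genes, 5 were lower and 2 higher (median -0.77). Col25a1, a membrane-bound collagen, was at 0, 0 and 3.93 CPM against 60.3, 106 and 103, and Timp3, an inhibitor of matrix proteases, changed by -3.09 ± 0.15. The protease gene Adamts5 had no UMI in the Myh8 Nr2f2 cells of any WT library and 15.9, 12.9 and 19.2 CPM in the Calb2 Cbln4 cells. Of 25 guidance genes, 1 was higher, the semaphorin Sema3e (1.74 ± 0.23), and 5 were lower, among them the netrin receptor Unc5c (-2.39 ± 0.34; median -0.02).

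Olfm3, a secreted olfactomedin, was at 0, 3.63 and 2.29 CPM in the Myh8 Nr2f2 and 209.6, 373 and 349.6 in the Calb2 Cbln4 cells (-7.39 ± 0.21). Thbs2, a thrombospondin, was at 0.807, 0 and 1.31 against 15.9, 31.1 and 41.3, and the proprotein convertase Pcsk5 had 2 UMIs in all Myh8 Nr2f2 cells against 28.6, 45.0 and 40.0 CPM. Sfrp2, a secreted binder of Wnt proteins, was at 0.807, 0 and 0.982 against 127, 124 and 119.7 CPM (-7.10 ± 0.28). These genes were close to absent from the Myh8 Nr2f2 cells. Hpse, a heparanase, had 1 UMI in each Myh8 Nr2f2 sum and 12.7, 35.4 and 19.6 CPM in the Calb2 Cbln4 cells. Mme, the peptidase neprilysin, and Ust, a sulfotransferase of chondroitin, changed by -4.52 ± 0.33 and -4.51 ± 0.49. Gm5607, which overlaps Sox1 on its strand, was at 0.807, 1.81 and 1.31 CPM against 28.6, 22.5 and 29.0. Trbc2, a constant segment of the T-cell receptor, had 3 UMIs in the Myh8 Nr2f2 cells, all in WT replicate 1, against 41.3, 20.4 and 39.6 CPM. What its reads stand for in a neuron is not known.

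Channel and receptor genes differed both ways. Of 32 potassium channel genes, 7 were higher and 8 lower (median -0.07). The tandem-pore channel Kcnk2 was at 25.0, 61.6 and 50.8 CPM against 197, 267 and 306 (-2.60 ± 0.12), and Kcnmb4, a subunit of calcium-activated channels, at 196, 308 and 358 against 60.3, 94.3 and 85.2 (1.88 ± 0.11). Kcnc4, of fast delayed rectifiers, was higher and Kcns3, a modulatory subunit, lower (1.51 ± 0.16 and -2.92 ± 0.31). Of 24 sodium, calcium and HCN channel genes, 6 were lower, such as Scn1a (-1.15 ± 0.10), and 1 higher, Fgf13, a partner of sodium channels (1.65 ± 0.12; median -0.09). Of 13 AMPA receptor genes and auxiliary subunits, 5 were lower and none higher (median -0.20), led by Gria1 at 209.7, 343 and 290.5 against 438, 651 and 604 CPM (-1.06 ± 0.08). Of 13 GABA receptor genes, 3 were higher, such as Gabrb1 (1.59 ± 0.22), and 2 lower, of which Gabrd, the subunit of extrasynaptic receptors (-2.37 ± 0.24), lost its call without WT replicate 3 (median 0.14). Of 12 kainate and metabotropic glutamate receptor genes, 1 was higher, Grm3 (2.59 ± 0.33), and 2 were lower, such as Grm4 (-3.26 ± 0.40; median -0.27). Among 17 calcium-binding proteins, 7 were higher, such as Ncald, neurocalcin (1.95 ± 0.09), and 3 lower (median 0.33). The serotonin receptor Htr1a was lower (-2.22 ± 0.26).

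Of the 9 activity-regulated genes tested, 1 was higher and 3 lower (median -0.20), among them Egr1 at 15.3, 163 and 24.9 CPM against 22.2, 348 and 57.1. WT replicate 2 was the highest in both groups. The single astrocyte gene tested, Apoe, was called higher (2.37 ± 0.32), at 23.4, 114 and 17.4 CPM with most UMIs of replicate 2 from 1 cell, and its change was 1.42 without that library. None of the 10 heat-shock genes tested was called. Of 4 genes of Pvalb cells, Kcns3 and Pvalb were lower (median -0.96), and the single glutamatergic gene tested, Camk2a, was higher (0.46 ± 0.11) but not without WT replicate 2 or 3. The 3 oligodendrocyte genes tested gave no call, with sums of 222, 93.2 and 191 CPM in the Calb2 Cbln4 cells. The number called fell to 351 without WT replicate 3, which holds most of the cells, to 137 with no pairing of libraries and to 306 with DESeq2. The 2 Grin1-null libraries alone gave 39 higher and 85 lower. Of the 20 genes named for the largest changes, 18 were called under each alternative in which they were tested, and Kit and Parm1 lost the call in the Grin1-null libraries alone. Of all 96 named genes called, 43 were called under each alternative, Nrtn and Fxyd7 not among them, 43 lost the call with no pairing and 24 with DESeq2.

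**Figure D1:**
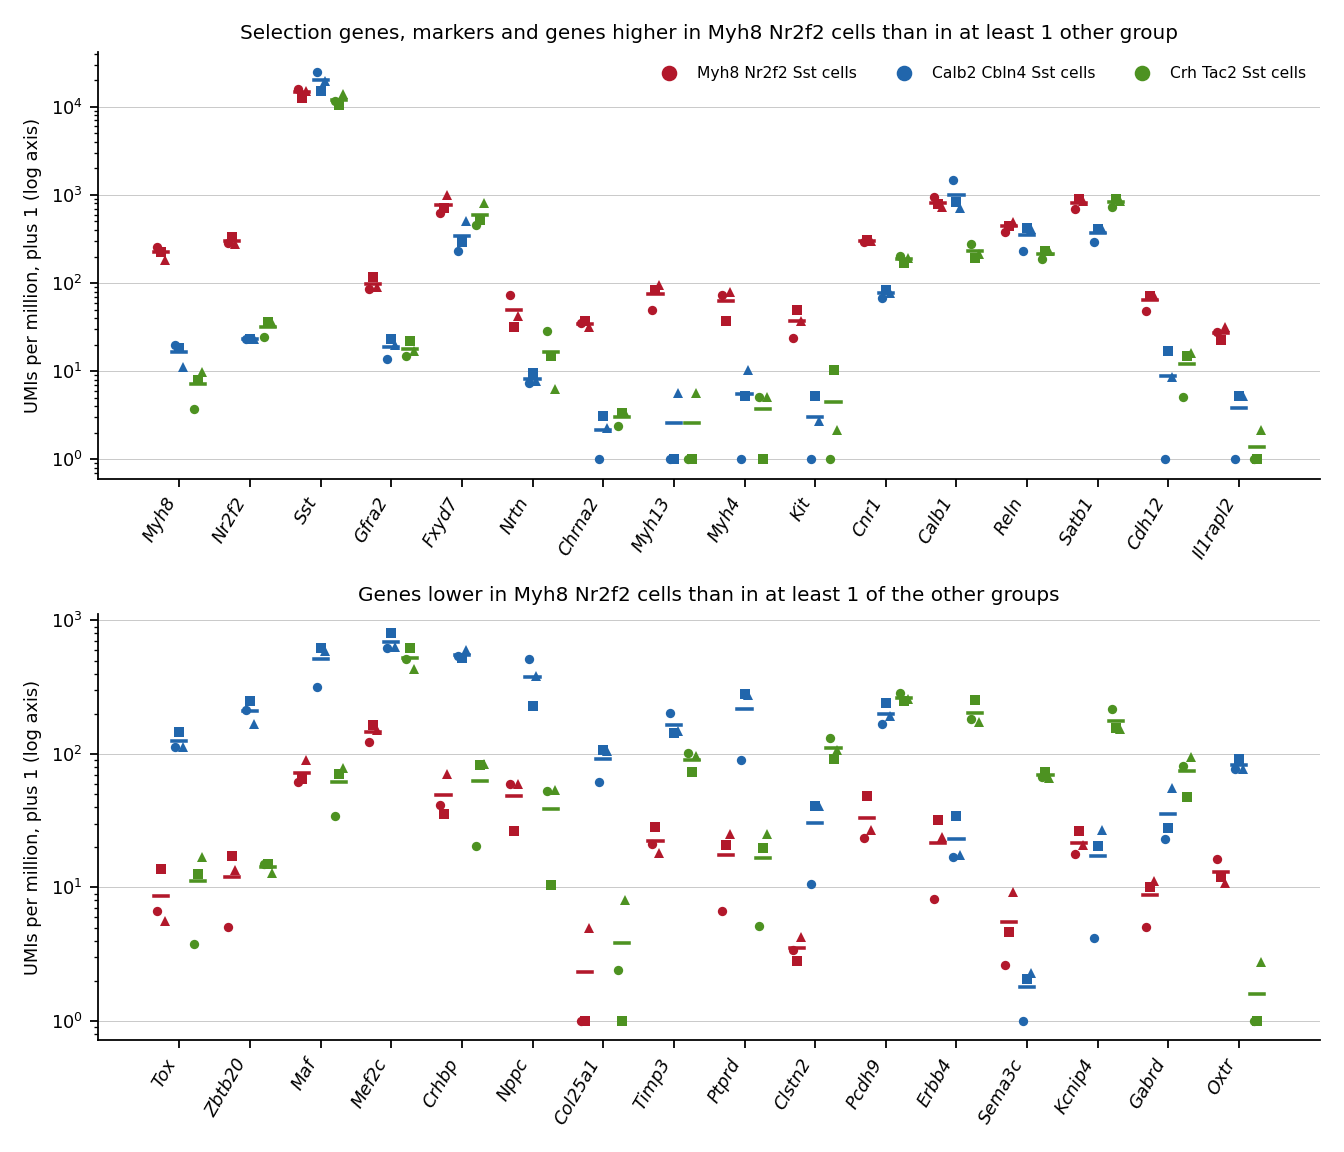
Level of named genes in CPM (vertical axis, log scale) in cortical Myh8 Nr2f2, Calb2 Cbln4 and Crh Tac2 Sst cells. Each point is 1 WT library (3 a group); Gfra2 and Chrna2 are higher in the Myh8 Nr2f2 cells than in both other groups in all 3 libraries, and Mef2c and Pcdh9 lower.

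Against the Crh Tac2 cells, the Myh8 Nr2f2 cells again had more Gfra2, Nrtn, Chrna2 and Kit RNA, and in this comparison also more Calb1, Reln, Elfn1 and Sox6. They had less RNA of the growth factor receptor Erbb4, of the relaxin receptor Rxfp1, of the serotonin receptor Htr2c, and of many potassium channels and synaptic organisers. The Crh Tac2 cells, with Crh plus Tac2 as the largest sum, numbered 70, 67 and 154 in WT replicates 1, 2 and 3. The test was the same, and it shares the Myh8 Nr2f2 sums with the comparison above, so genes that recur are not independent. Of 8556 genes tested, 405 (4.73%) were higher and 438 (5.12%) lower, together 9.85%, and 41.6% of all genes kept their direction in every library.

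Gfra2 was at 84.7, 116 and 89.1 CPM in the Myh8 Nr2f2 cells and 13.9, 21.0 and 15.8 in the Crh Tac2 cells of WT replicates 1, 2 and 3. Nrtn was at 72.6, 30.8 and 40.9 against 27.7, 14.0 and 5.28, and Fxyd7 at 622, 718 and 994 against 456, 521 and 799. Each library again had more of all 3 in the Myh8 Nr2f2 cells, but for Fxyd7 the difference is small and the ranges of the groups overlap. The changes were 2.52 ± 0.19 for Gfra2, 1.95 ± 0.24 for Nrtn and 0.40 ± 0.08 for Fxyd7 (n = 3 libraries a group). In the list for the neurturin family 3 of 5 genes were higher and none lower (median 0.47, against 0.01 over all genes). Of the pump genes 4 of 10 were higher and 1 lower (median 0.22), Atp1b2 among the higher (0.47 ± 0.10). Of the selection genes, Crh stood at 1.73 ± 1.63 CPM in the Myh8 Nr2f2 and 678 ± 79.0 in the Crh Tac2 cells (mean ± SD, n = 3), and Tac2 at 5.84 ± 6.44 and 541 ± 380.2. Myh8 stood at 6.20 ± 3.10 CPM in the Crh Tac2 cells, Nr2f2 at 30.9 ± 6.37 and Sst at 12075 ± 1781.

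Genes known from Martinotti cells, a list chosen with earlier results of these data known, were mostly higher, 8 of 12 against 1 lower (median 0.55). Calb1 was at 937, 792 and 727 CPM against 279, 194 and 215, and Reln, the secreted glycoprotein reelin, at 379, 448 and 489.9 against 187, 229 and 228. Elfn1, which sits in Sst cells opposite their excitatory inputs and sets their facilitation, was at 212, 288 and 304 against 86.0, 105 and 117. None of these 3 overlaps between the groups, and the changes were 1.82 ± 0.09, 1.06 ± 0.09 and 1.39 ± 0.11. Chrna2 was at 33.9, 36.3 and 30.8 CPM against 1.39, 2.34 and 2.35 (3.90 ± 0.40), with UMIs in 2.06% of the Crh Tac2 cells (median 9541 UMIs, 0.699% thinned). Unc13c, a priming factor of synaptic vesicles, changed by 2.53 ± 0.16. The lower gene was Pnoc, the precursor of nociceptin, at 58.9, 29.0 and 44.9 against 122, 77.2 and 86.9.

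The myosin neighbours Myh13, Myh4 and Myh1 were higher (3 of 5, none lower, median 3.17), at 75.1 ± 23.7, 61.8 ± 22.3 and 28.2 ± 4.10 CPM against 1.57 ± 2.71, 2.76 ± 2.39 and 3.41 ± 1.85. Pcp4, which speeds calcium exchange on calmodulin, was at 656, 326 and 393 CPM against 52.7, 23.4 and 44.0 (3.41 ± 0.12). Il1rapl2 was at 26.6, 21.8 and 30.5 against 2 UMIs in all Crh Tac2 cells. Lypd1, C1qtnf7 and Wnt16 were higher by 4.72 ± 0.38, 3.77 ± 0.45 and 3.54 ± 0.36. Ighm, the heavy chain of immunoglobulin M, was at 119, 27.2 and 11.1 CPM against 9.71, 0 and 0, and 43 of the 152 cells of WT replicate 1 had a UMI of it, with 10 of 104 and 19 of 344 in replicates 2 and 3. Its level thus differs widely between libraries. With Kit (3.99 ± 0.40), Ighm was 1 of the 2 genes among the 20 largest changes that lost the call when libraries were not paired. The peptide list gave 7 higher and 3 lower of 16 (median 0.17). Chgb, a granin of dense-core vesicles, was at 653, 1015 and 1217 CPM against 180.3, 219.8 and 427 (1.76 ± 0.09), and Pdyn was higher by 1.72 ± 0.29.

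Among lineage transcription factors, 5 of 24 were higher and 5 lower (median 0.01). Sox6 was at 105, 163 and 162 CPM against 13.9, 35.1 and 31.1 (2.44 ± 0.15), while Mef2c was at 121, 163 and 150.0 against 517, 617 and 428 (-1.76 ± 0.09) and the repressor Bcl6 at 1.61, 5.44 and 1.31 against 36.1, 49.1 and 19.4 (-3.77 ± 0.39). Both kinds kept their direction in each library. Lmo1, a LIM-only cofactor, was lower (-3.65 ± 0.23). Of 9 trophic factors and receptors, 2 were higher and 2 lower (median 0.18). Erbb4, the neuregulin receptor of interneurons, was at 7.26, 30.8 and 22.9 against 182, 253 and 173 CPM (-3.22 ± 0.15).

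Synaptic organisers were lower in 14 of 32 cases and higher in 3 (median -0.36). Clstn2 was at 2.42, 1.81 and 3.27 CPM against 130.3, 91.2 and 106, Ntng1, netrin-G1, at 4.84, 9.06 and 8.84 against 66.6, 115 and 95.1, and the secreted C1ql3 at 0, 1.81 and 2.62 against 16.6, 28.1 and 29.3. All 3 were low in the Myh8 Nr2f2 cells of each library (-5.21 ± 0.25, -3.50 ± 0.21 and -3.74 ± 0.41). Ptprt, a receptor phosphatase of cell contacts, Lrp1b, a large endocytic receptor, and Brinp3 were lower by similar amounts (-3.81 ± 0.13, -3.94 ± 0.16 and -3.65 ± 0.17). Of 19 cadherins, 7 were lower and 3 higher (median -0.31), with Pcdh9 at -3.22 ± 0.13, N-cadherin (Cdh2) at -2.29 ± 0.12 and Cdh12 at 2.42 ± 0.23. Guidance genes gave 7 lower of 25 and 1 higher (median -0.23). The semaphorin Sema3c (-3.47 ± 0.25) and the netrin receptor Unc5d (-3.16 ± 0.23) were among the lower. Of 9 matrix genes 3 were lower, Timp3 the most (-2.26 ± 0.18), and 2 higher, with the collagen Col19a1 at 1.41 ± 0.15 (median -0.27).

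Of 32 potassium channel genes, 14 were lower and 5 higher (median -0.39). Kcnip4, a subunit that tunes A-type currents, was at 16.9, 25.4 and 19.6 CPM against 216, 157 and 154 (-3.10 ± 0.15). Kcnh1 and Kcnh7, of the ether-a-go-go family, and Kcnq5, which carries M-currents, were lower (-2.96 ± 0.32, -2.46 ± 0.28 and -2.38 ± 0.32), while Kcnc1 was higher (0.53 ± 0.10). Htr2c was at 0.807, 3.63 and 3.60 CPM against 20.8, 101 and 81.6 (-4.51 ± 0.29), and Rxfp1 had 1 UMI in all Myh8 Nr2f2 cells against 31.9, 25.7 and 24.1 CPM. Both receptors were thus nearly absent from the Myh8 Nr2f2 cells. The relaxin-3 receptor gene Rxfp3 went the other way, at 15.3, 21.8 and 12.4 CPM against 3 UMIs in all Crh Tac2 cells. Of 13 GABA receptor genes 3 were lower and 1 higher, Gabrd among the lower at 4.03, 9.06 and 10.2 against 80.4, 46.8 and 93.9 CPM (-3.31 ± 0.22; median of the list -0.34). Of 12 AMPA receptor genes 4 were higher and 1 lower (median 0.18), with Gria3 at 0.91 ± 0.11 and Gria1 at 0.55 ± 0.10, the latter without a call when WT replicate 3 was left out. Of 5 NMDA receptor genes Grin2a and Grin2b were lower (-0.57 ± 0.14 and -0.47 ± 0.08), Grin2a not without WT replicate 3 (median -0.47). The noncoding Gm13629 was lower too (-3.61 ± 0.32).

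Sums of oligodendrocyte genes in the Crh Tac2 cells were 212, 91.2 and 173 CPM, and none of the 3 tested was called. Of 3 neurogliaform genes 2 were lower (median -3.47), Sema3c and the secreted Ndnf, at 0.807, 1.81 and 6.22 against 19.4, 53.8 and 62.8 CPM (-3.53 ± 0.29). Of 4 genes of Pvalb cells 1 was higher and 2 lower (median -0.51), and of 9 heat-shock genes Hsp90ab1 was higher (0.27 ± 0.07; median 0.02), a call lost with any 1 of the 3 libraries left out. Apoe was called higher (1.41 ± 0.27), and without WT replicate 2 its change was 0.70 and not called. The number of called genes fell to 375 without WT replicate 3, to 80 with no pairing of libraries and to 286 with DESeq2. Of the 20 genes named for the largest changes, 18 were called under each alternative in which they were tested. Of all 95 named genes called, 40 were, Nrtn, Reln and Fxyd7 not among them, while 55 lost the call with no pairing and 31 with DESeq2.

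Within the Myh8 Nr2f2 cells, those with Myh8 and no Nr2f2 UMI and those with Nr2f2 and no Myh8 UMI differed in few genes. The Myh8-only cells had more Rgs10, Pnoc, Cartpt and Myh13 RNA, and less Stxbp6, Lgals1, Nnat, Nsg2, Pvalb, Rprml and Rab27b. In WT replicates 1, 2 and 3 there were 15, 14 and 29 Myh8-only and 27, 37 and 99 Nr2f2-only cells, and the test paired them within libraries. Of 3923 genes tested, 4 (0.102%) were higher and 7 (0.178%) lower in the Myh8-only cells, together 0.28%, and 25.6% of all genes kept their direction in every library. Gfra2 and Fxyd7 were not called (0.41 ± 0.30 and 0.05 ± 0.14), and without WT replicate 1 or 2 the change was 0.11 or 0.77 for Gfra2 and 0.25 or -0.12 for Fxyd7, with Gfra2 at 129.6, 74.7 and 99.1 CPM in the Myh8-only and 49.0, 152 and 69.2 in the Nr2f2-only cells.

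Rgs10 was at 352, 504 and 481 CPM in the Myh8-only and 235, 106 and 177 in the Nr2f2-only cells, a change of 1.35 ± 0.18. Pnoc was at 129.6, 56.0 and 80.2 against 4.90, 32.3 and 30.8 (1.77 ± 0.41), and Cartpt, the precursor of the CART peptide, at 370.2, 448 and 345 against 181, 415 and 174 (0.77 ± 0.18). All 3 were higher in each library, although the ranges of Cartpt overlap. Myh13, the neighbour of Myh8, was at 46.3, 243 and 160.5 against 39.2, 36.9 and 70.3. On the lower side, Stxbp6, which binds proteins of vesicle fusion, was at 55.5, 37.3 and 23.6 against 157, 203 and 165 (-2.26 ± 0.35). Lgals1, the sugar-binding galectin-1, was at 64.8, 74.7 and 151 against 407, 539 and 259 (-1.58 ± 0.22). These genes do not overlap between the groups. Pvalb, the calcium buffer parvalbumin, was at 27.8, 37.3 and 4.72 against 93.1, 152 and 68.1 (-2.42 ± 0.51). The imprinted gene Nnat, the endosomal Nsg2, Rprml and the vesicle GTPase Rab27b changed by -1.33 ± 0.24, -1.31 ± 0.23, -1.23 ± 0.28 and -0.94 ± 0.20. Without WT replicate 3, Lgals1 alone of the genes still tested kept its call, and the changes became -2.74 for Lgals1, -2.03 for Nnat and -0.70 for Rprml. Cartpt, Rab27b and Pnoc lost theirs without WT replicate 1, and Myh13 without WT replicate 2.

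A missing UMI at this depth does not show a missing gene, so these groups part in counts and not surely in expression. With DESeq2 no gene was called (19 at an unadjusted p under 0.05, against 205 with edgeR), with no pairing of libraries 0 (35 at an unadjusted p under 0.05), and none of the 11 was called under every alternative.

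In Grin1-null cortex the Myh8 Nr2f2 cells had less Grin1 RNA than in each WT library. Grin1 was at 150.0, 274 and 242 CPM in WT replicates 1, 2 and 3 and at 36.2 and 34.5 in Grin1-null replicates 1 and 2. The groups do not overlap, and the change (Grin1-null over WT) was -2.71 ± 0.40, at an adjusted p of 0.0133 (edgeR's quasi-likelihood test, Benjamini-Hochberg), just short of a call. With the replicate number, which goes with the kit version, as a block, Grin1 was called (-2.73 ± 0.47). In the cells, 114 of 152, 79 of 104 and 293 of 344 had a Grin1 UMI in WT and 6 of 15 and 22 of 60 in Grin1-null libraries. A floxed allele may still give RNA outside the removed piece, so these UMIs do not show an intact gene.

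At full depth, the share of Myh8 Nr2f2 cells among the gated Sst cells in both Grin1-null libraries lay inside the range of the WT libraries. It was 37.0% (152 of 411, 95% Wilson interval 32.5 to 41.8), 13.8% (104 of 752, 11.5 to 16.5) and 29.2% (344 of 1179, 26.7 to 31.8) in WT. In Grin1-null libraries it was 21.4% (15 of 70, 13.4 to 32.4) and 23.8% (60 of 252, 19.0 to 29.4). WT replicate 2, the shallowest, is the lowest. The means were 26.7 ± 11.8 and 22.6 ± 1.68% (SD, n = 3 and 2), a difference of -4.04 points (two-sided exact permutation p = 0.7, where the smallest possible is 0.1, so that this test could not have called a difference). Without WT replicate 1 the difference was 1.12 points and without WT replicate 2 -10.5. With cells thinned to 2000 UMIs and a minimum of 1 UMI, the shares were 26.9, 16.7 and 20.6% in WT. Grin1-null replicate 1 (27.3%) then lay above the WT range and replicate 2 (12.4%) below it, a difference of -1.54 points. Of all cells with Gad1 plus Gad2, the shares were 18.7, 5.88 and 14.6% in WT. They were 10.7 and 5.55% in Grin1-null libraries, the latter below each WT value.

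The Grin1-null cells were chosen by the same thresholds, so their Sst, Myh8 and Nr2f2 are set in part by the selection. Gfra2 was at 84.7, 116 and 89.1 CPM in WT and 66.3 and 113 in Grin1-null cells, and Fxyd7 at 622, 718 and 994 in WT and 1073 and 1483 in Grin1-null cells. Gfra2 overlaps between the genotypes, Fxyd7 does not, and neither was called (-0.06 ± 0.34 and 0.67 ± 0.30). Without Grin1-null replicate 2 the changes were -0.56 and 0.43, and Gfra2 changed sign without Grin1-null replicate 1 (0.14) or WT replicate 2 (0.05). Myh8 stood at 133 and 154, below each WT value, Nr2f2 at 283 and 210.4 and Sst at 16312 and 16337 CPM in the Grin1-null cells. Of 8716 genes tested, 4 were higher in Grin1-null cells and 0 lower, 0.0459%, and for 19.3% of all genes the values of the genotypes did not overlap. At an unadjusted p under 0.05 there were 329 in both directions, and DESeq2 called 5 higher and 2 lower. With the replicate number as a block, 7 were higher and 8 lower, all 4 among the higher.

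The 4 genes were Igfbp6, Gal, Necab2 and S100a10. Igfbp6, which binds insulin-like growth factors, was at 3.23, 5.44 and 1.31 CPM in WT and 24.1 and 117 in Grin1-null cells, a change of 4.96 ± 0.60. Gal, the precursor of the peptide galanin, was at 0.807, 0 and 2.29 in WT and 24.1 and 44.8 in Grin1-null cells (4.46 ± 0.63). The Grin1-null values are the higher for both, but in Grin1-null replicate 1 each rests on 4 UMIs of 1 cell, while in replicate 2 Igfbp6 was counted in 24 of 60 cells and Gal in 11. Necab2, a neuronal calcium-binding protein, was at 4.84, 7.25 and 10.8 CPM in WT and 48.2 and 98.9 in Grin1-null cells (3.21 ± 0.43), with UMIs in 5 of 15 and 30 of 60 Grin1-null cells. S100a10, a calcium-binding protein that carries membrane proteins to the surface, was at 37.1, 25.4 and 29.5 in WT and 133 and 238 in Grin1-null cells (2.57 ± 0.34), with UMIs in 10 of 15 and 39 of 60 cells. Necab2 and S100a10 are thus spread over cells in both Grin1-null libraries. Without Grin1-null replicate 2, Gal was too low to be tested, and Igfbp6 (change 3.14), Necab2 and S100a10 lost the call. Gal, Necab2 and S100a10 lost the call without WT replicate 2, S100a10 without WT replicate 3 and Gal without Grin1-null replicate 1. Crhbp, a gene of the peptide list, was named after its values were seen. It was at 40.3, 34.4 and 70.1 in WT and 169 and 362 CPM in Grin1-null cells (2.40 ± 0.38), at an adjusted p of 0.0202 in edgeR's quasi-likelihood test (Benjamini-Hochberg). It was called with the replicate number as a block (2.68 ± 0.44).

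In the lists, 2 of 17 calcium-binding genes were higher, Necab2 and S100a10, and none of the 15 peptide genes, 5 NMDA receptor genes, 12 AMPA receptor genes, 13 GABA receptor genes, 30 potassium channel genes, 23 lineage transcription factors or 26 synaptic organisers tested was called in either direction. Gal, called above, is in none of the lists. The medians of these lists were 0.06, 0.30, -0.51, 0.23, -0.11, 0.26, -0.35 and -0.04, against -0.03 over all genes. With the replicate number as a block, 1 of the 15 peptide genes, Crhbp, was higher and 1 of the 5 NMDA receptor genes, Grin1, lower. Without the block, no gene was called in the lists of other cell types or of the matrix. The medians were -2.48 for 3 genes of Pvalb cells, -0.68 for 3 of oligodendrocytes and -0.72 for 9 of the matrix. The lists with a single gene tested gave -2.02 (astrocytes, Apoe), -0.61 (neurogliaform), -0.41 (glutamatergic) and 0.12 (caudal interneurons). Pvalb was at 34.7, 63.5 and 29.5 CPM in WT and 12.1 and 3.45 in Grin1-null cells (-3.03 ± 0.66), with 2 and 3 UMIs in the latter. Pvalb, Apoe and the activity-regulated Fos were called lower with the replicate number as a block (-3.43 ± 0.67, -2.81 ± 0.58 and -2.87 ± 0.54). Fos was at 16.1, 232 and 27.5 CPM in WT and 6.03 and 29.9 in Grin1-null cells, so the genotypes overlap. Whether carried-over RNA has a part in these levels was not tested. Npy, which was named after its values were seen, was at 2365, 2955 and 2113 CPM in WT and 7176 and 4419 in Grin1-null cells and was not called. In Grin1-null replicate 1, 1167 of its 1190 UMIs came from 1 cell.

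Genotype goes with depth in part. The median depth of the Myh8 Nr2f2 cells was the highest in Grin1-null replicate 2, at 15048 UMIs. In Grin1-null replicate 1, which has only 15 cells, it was 8557, close to 7935 and 8206.5 in WT replicates 1 and 3. For the share of cells, the values after thinning are given above. For the levels of genes, the part of depth was not tested. Leaving out a Grin1-null library leaves 1, so that only the WT libraries give the spread. Without Grin1-null replicate 2, with 15 cells left, no gene was called by edgeR (429 at an unadjusted p under 0.05), and without WT replicate 1 there were 17.

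**Figure D2:**
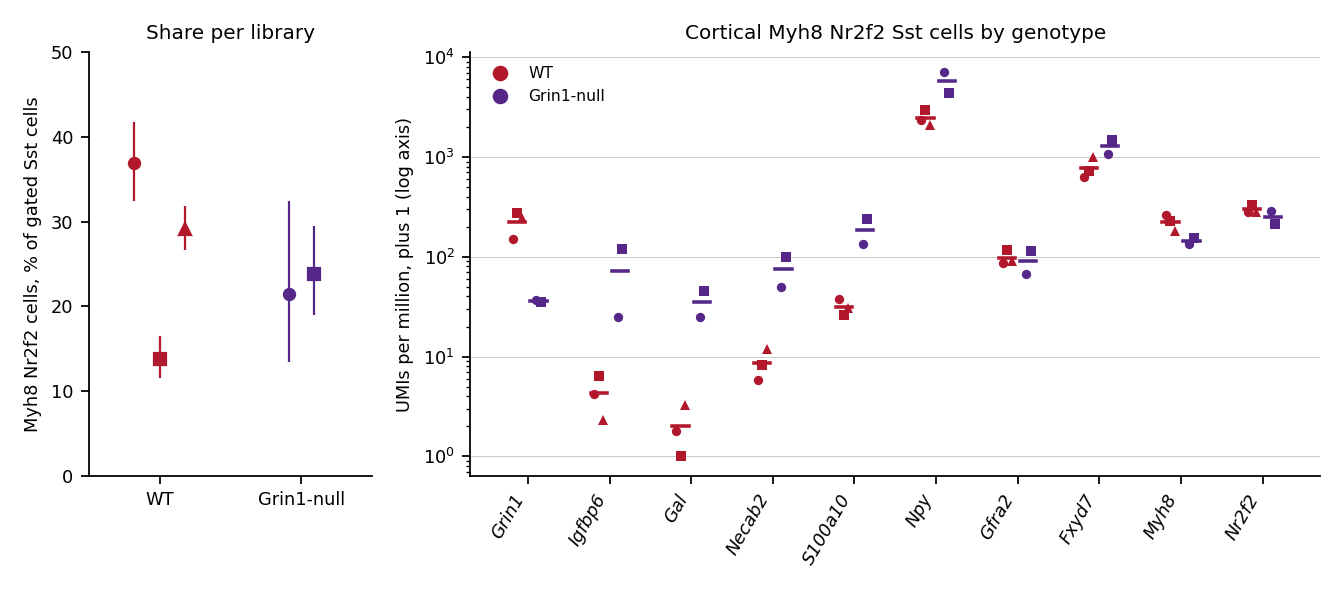
Left, share of Myh8 Nr2f2 cells among gated cortical Sst cells in percent, 1 point a library with its 95% Wilson interval; right, levels in CPM (log axis) in 3 WT and 2 Grin1-null libraries. At full depth, the Grin1-null shares lie within the range of the WT shares, which they do not with cells thinned to 2000 UMIs. Grin1 is lower in both Grin1-null libraries than in each WT library.

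The same thresholds applied to hippocampus picked cells with less Myh8 in each library, which differed from the cortical cells in other genes too. WT hippocampal replicates 1, 2 and 3 gave 48, 17 and 57 cells of 178, 405 and 225 gated ones. In the main fit, which has no block, they had, against the cortical Myh8 Nr2f2 cells, more Olfm3, Aga, Unc5d, Zfpm2, Necab1, Tenm2, Timp3 and Chst2 RNA and less Spon1. The number of genes called depended on the fit, with 9 in the main fit and 90 with the replicate number as a block. Myh8 was at 46.6, 57.6 and 126 CPM in hippocampus against 259, 225 and 181 in cortex, and Nr2f2 at 486, 504 and 259 against 282, 332 and 279. Of the hippocampal cells, 16.7, 23.5 and 56.1% had both genes, against 72.4, 51.0 and 62.8% in cortex. The hippocampal cells of replicates 1 and 2 were thus picked more by Nr2f2. In hippocampal replicate 3 the share with both genes lay inside the cortical range, and Nr2f2 was below each cortical value.

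Gfra2 was at 76.6, 43.2 and 134 CPM in hippocampus and 84.7, 116 and 89.1 in cortex, and Fxyd7 at 249.8, 230.4 and 613 in hippocampus and 622, 718 and 994 in cortex. Gfra2 overlaps and Fxyd7 lies lower in each hippocampal library, and neither was called (-0.02 ± 0.35 and -1.08 ± 0.38, hippocampus over cortex). Without hippocampal replicate 3 the changes were -0.54 and -1.72, and Gfra2 changed sign without hippocampal replicate 1 (0.10) or 2 (0.14) or cortical replicate 2 (0.07). Fxyd7 was called lower in hippocampus with the replicate number as a block (-1.17 ± 0.22, adjusted p 0.00388) and Gfra2 was not called (0.04 ± 0.28). Of 7432 genes tested, 8 (0.108%) were higher in hippocampus and 1 (0.0135%) lower, together 0.121%, and for 10.2% of all genes the regions did not overlap. With the replicate number as a block, 50 were higher and 40 lower, all 9 among them. Aga, an enzyme of glycoprotein breakdown in lysosomes, was at 259.8, 259 and 78.1 CPM against 1.61, 1.81 and 6.88, Unc5d at 316, 187 and 98.7 against 3.23, 19.9 and 6.88 and Olfm3 at 183, 230.4 and 49.3 against 0, 3.63 and 2.29. None of them overlaps between the regions (5.30 ± 0.60, 4.56 ± 0.58 and 6.06 ± 0.72). Spon1, a matrix protein that guides axons, was at 16.7, 0 and 15.1 in hippocampus and 147, 183 and 185 in cortex (-3.62 ± 0.42). Tenm2, a teneurin of synaptic contacts, was at 273, 187 and 215 against 21.0, 25.4 and 31.4 (3.08 ± 0.32). Cortical cells were thus richer in Spon1 and hippocampal cells in Tenm2 in every library. The calcium-binding Necab1, the cofactor Zfpm2, Timp3 and the sulfotransferase Chst2 changed by 4.05 ± 0.55, 4.53 ± 0.64, 2.83 ± 0.39 and 2.56 ± 0.34. Without hippocampal replicate 1 no gene was called by edgeR (334 at an unadjusted p under 0.05). There were 5 without cortical replicate 2 and 4 without cortical replicate 3, Timp3, Zfpm2, Chst2 and Necab1 losing the call both times and Unc5d in the latter. Zfpm2 also lost it without cortical replicate 1 and hippocampal replicates 2 and 3, Timp3 and Necab1 without hippocampal replicate 2, and Chst2 and Spon1 without hippocampal replicate 3.

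In the lists, 1 of 17 guidance genes, 1 of 26 synaptic organisers and 1 of 16 calcium-binding genes were higher, and of 11 matrix genes 1 was higher and 1 lower (medians 0.32, 0.42, -0.56 and 0.76, against -0.02 over all genes). Under the block, 2 guidance genes were higher and 1 lower, 3 organisers were higher, of the calcium-binding genes 1 was higher and 2 lower and of the matrix genes 2 were higher and 1 lower (medians 0.29, 0.42, -0.59 and 0.74). None of the 12 Martinotti genes tested was called (median -0.60), while with the block Pnoc was higher and Unc13c lower (2.16 ± 0.37 and -2.32 ± 0.31; median -0.66). Of 18 cadherins 0 were called, and with the block 3 were higher and 1 lower (median 0.27). Nrtn, which encodes neurturin, was at 6.66, 0 and 12.3 CPM in hippocampus and 72.6, 30.8 and 40.9 in cortex (-2.39 ± 0.55), and was called lower in hippocampus under the block but not in the main fit (-2.38 ± 0.46), as were Pcp4 (-4.43 ± 0.45) and the Myh8 neighbour Myh13 (-1.71 ± 0.34). Crhbp and the AMPA receptor gene Gria1 were likewise called higher (1.84 ± 0.30 and 1.47 ± 0.24). Pdyn, at 33.1, 41.7 and 27.5 CPM in cortex with no UMI in the hippocampal cells, and Nptx2, at 24.2, 21.8 and 30.5 CPM with 1 UMI there, were called lower in the same way. Chrna2, which fewer cells carried, had a UMI in 1 of 48, 1 of 17 and 5 of 57 hippocampal cells and in 32 of 152, 15 of 104 and 65 of 344 cortical ones. Oligodendrocyte genes moved with region. The 10 genes summed to 449.7, 2232 and 319 CPM in the hippocampal cells against 199, 92.5 and 174 in cortex. None of the 6 tested was called (median 2.03), with the block Mbp was higher (1.77 ± 0.35), and their part in the result was not tested.

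**Figure D3:**
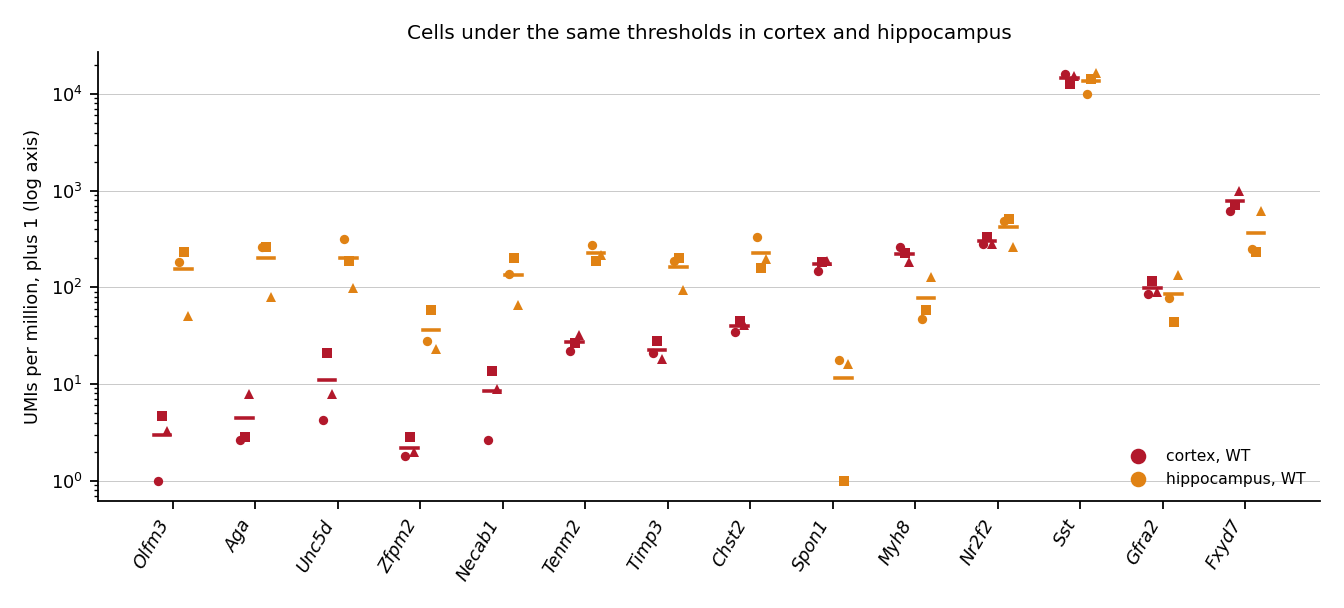
Levels in CPM (log axis) of region genes and markers in cells under the same thresholds, 1 point for each of 3 cortical and 3 hippocampal WT libraries. Spon1 is higher in each cortical library, and Olfm3, Aga and Unc5d in each hippocampal library.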

How the data were processed

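The authors made the UMI count matrices with Cell Ranger 2.1.1 (the file headers give 3.0.2) on an mm10 annotation whose genes they lengthened by 4 kb at the end, or to the midpoint before a closer neighbour, and the matrices were used as deposited. Replicates were matched from the barcodes per suffix to the cell numbers in the methods. UMIs were summed per library and cell group and tested with edgeR 4.0.16 and DESeq2 1.42.0 in R 4.3.3. Other steps used Python 3.11.15, numpy 2.4.6, scipy 1.17.1, pandas 2.3.3, scanpy 1.11.5 with Scrublet, and matplotlib 3.10.9. A call needed an adjusted p under 0.01 and an absolute log2 change of at least 0.144, and standard errors are those implied by the quasi-likelihood F. Named genes are the 10 largest called rises and falls that went the same way in every library or did not overlap, at 20 CPM or more in the higher group, then up to 4 called genes per list, the selection genes, the markers and Grin1, and a few more that the text marks or gives by level. The members and the lists were chosen with earlier results of these data known. Over 7437 genes, the deviations of cortical and hippocampal libraries from their region means correlated (Pearson) at 0.440, 0.297 and 0.171 for the same number and at -0.321 to 0.104 for different numbers. Each same-number value is above the highest different-number value, but replicate 1 also differs from the others in kit. Whether the same number marks the same animals was not tested. For genotype and region, the number was a block only in an alternative fit.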

Additional observations from a re-analysis of the deposited data

How the results depend on the processing

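There are 2 or 3 libraries a group, kit and replicate cannot be told apart, sampling depth differs between libraries, and cells were chosen by few UMIs, so a cell without a UMI may still express the gene. Free RNA in the droplets was not removed. Protein, cell position and shape were not measured in the sequenced cells. Each alternative repeats the analysis on the same libraries, and the cause of a change in number was not tested. Genes called against Calb2 Cbln4 cells numbered 794, and 306 with DESeq2, 1226 at an adjusted p under 0.05, 137 without pairing and 124 in the 2 Grin1-null libraries alone, where Penk turned to a change of -0.34. Leaving out a library gave 351 to 1002. Against Crh Tac2 cells there were 843, and 286 with DESeq2, 80 without pairing and 375 to 813 with a library left out. Between Myh8-only and Nr2f2-only cells there were 11, and 0 with DESeq2, 7 with library size in place of TMM, 2 with a minimum of 3 UMIs, 6 with mixed cells removed, 0 without pairing and 1 to 15 with a library left out. Between genotypes there were 4, and 7 with DESeq2, 22 with no filter on low counts, 15 (7 higher, 8 lower) with the replicate number as a block, with which Grin1, Crhbp, Pvalb, Apoe and Fos gained a call, and 0 to 17 with a library left out. Between regions there were 9, and 44 with DESeq2, 105 with no filter, 42 at an adjusted p under 0.05, 90 with the replicate block, with which, of the listed genes, Fxyd7, Nrtn, Myh13, Pdyn, Crhbp, Pnoc, Pcp4, Vsnl1, Nptx2, Unc13c, Gria1, Grm5, Kcnmb4, Sox6, Nr2f1, Tenm3, Tenm4, Sema3e, Efna5, Col25a1, Pcdh8, Pcdh9, Pcdh19, Cdh12 and Mbp gained a call and none lost it, and 0 to 12 with a library left out. The share of Myh8 Nr2f2 cells, Grin1-null minus WT, was -4.04 points and ran from -10.46 to 1.12 with a library left out, turning without WT replicate 1. It was -1.54 points with cells thinned to 2000 UMIs and a minimum of 1 UMI. Not run for lack of libraries or cells: the Grin1-null libraries alone against Crh Tac2 cells, all 5 libraries and the Grin1-null ones alone for Myh8-only cells, and the minimum of 3 UMIs for genotype.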
